A study of Rattus norvegicus with 16 samples.

Results

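The genes described here mark the hepatocytes around the central vein of the liver lobule or are switched on by Wnt signalling there. They were chosen by name and number 9: Glul, Rhbg, Oat, Slc1a2, Cyp2e1, Rgn, Lect2, Axin2 and Tbx3. Each was matched to a probe by the RefSeq transcript number or gene name in the scan files, and all 9 were among the 13146 transcripts that passed the filter on dim probes (8562 of them with a gene symbol). Blood enters the lobule at the portal tracts and leaves at the central vein, and hepatocytes divide their work along that path. Endothelial cells of the central vein release Wnt ligands, which stabilise beta-catenin in the neighbouring hepatocytes. Beta-catenin then binds factors of the TCF/LEF family on DNA and keeps the pericentral programme on, which includes glutamine synthesis from ammonia and much of the P450 system, while urea and glucose synthesis predominate near the portal tracts.

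The livers came from male Sprague Dawley rat pups aged 21 days that stayed with their own mothers. Dams were dosed through gestation and lactation, so the pups were exposed in the womb and through milk. The 4 groups were C (dams given the corn oil vehicle), 0.5M and M (dams given organochlorine pesticides together with polychlorinated biphenyls and methyl mercury, 0.5 or 1.0 mg/kg/day in the same oil) and AhR (dams given non-ortho polychlorinated biphenyls, dioxins and furans that act on the aryl hydrocarbon receptor, 1.8 ng/kg/day as dioxin equivalents). RNA of 2 pups of a group, paired at random, went on each array, which gave 4 arrays and 8 pups per group. The labels do not say which pups were littermates, so p-values measure the spread between these arrays and shared litters, if any, would make them too small. All comparisons with C use the same 4 C arrays and are not independent of each other.

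Cy5 carried the liver RNA of each array and Cy3 a common rat reference, which the labels describe as RNA from 14 rat cell lines. The value of a gene is the log2 ratio of Cy5 to Cy3 after correction for background and intensity. Replicates 1 and 2 of each group lay on slide 1 and replicates 3 and 4 on slide 2, and slide 1 was dimmer: 7082 to 13824 of 30367 probes stood well above background in Cy5 there, against 13006 to 15686 on slide 2. All 8 hepatocyte markers, albumin and transthyretin among them, were well above background in Cy5 on every array. The Cy3 channel went against its label. It held albumin signals of 66135 to 117670 and a correlation of 0.868 to 0.977 with Cy5 of the same array across probes. A ratio here therefore cannot be read as liver against cell lines and serves only to compare arrays with each other. Raw Cy3 signal exceeded raw Cy5 for 92 of the 144 values of the 9 genes, a count that also follows the brightness of the channels. On M 1, for example, the 99th percentile of signal was 2225 in Cy5 and 28209 in Cy3. Skeletal muscle transcripts were high on M 2 and 0.5M 4 (mean log2 ratio of 6 markers 3.12 and 3.15, against -2.33 to -0.90 on the other 14 arrays), with stellate cell and fibroblast markers at 1.52 and 1.46. Pancreas transcripts were highest on M 1 (1.57) and AhR 2 (0.89) and fat transcripts on C 2 (0.50). On every array the departures of Cy5 and of Cy3 from the other arrays were positively correlated across probes. The correlation was highest on C 2, M 4, M 2 and AhR 2 (0.81, 0.68, 0.63 and 0.63) and ran from 0.20 (AhR 1) to 0.52 (0.5M 1) elsewhere. The part of these tissues and of the reference in the results below was not tested. Values without such arrays or from Cy5 alone stand beside the results for the larger of their shifts.

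Signals of Glul, Rhbg, Oat, Cyp2e1, Rgn and Lect2 were well above background on all 16 arrays. Axin2 was above background on 11 arrays, Slc1a2 on 12 and Tbx3 on 13, and on every array of slide 2 in each case. No gene was below background on all arrays of a group. The dim arrays for these 3 genes were C 2, 0.5M 2, M 1, M 2 and AhR 1 for Axin2, the same without C 2 for Slc1a2, and 0.5M 2, M 1 and AhR 1 for Tbx3. The median signal of Axin2 in Cy5 ran from 70 to 194 scanner units and that of Tbx3 from 75 to 215, close to the offset of 50 added before logarithms, which shrinks ratios of dim genes. Cyp2e1, read from 10 spots per array, ran from 2778 to 43224 in Cy5. Slc1a2 had another probe for a different transcript that was above background on 3 arrays and was not used.

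**Figure D1:**
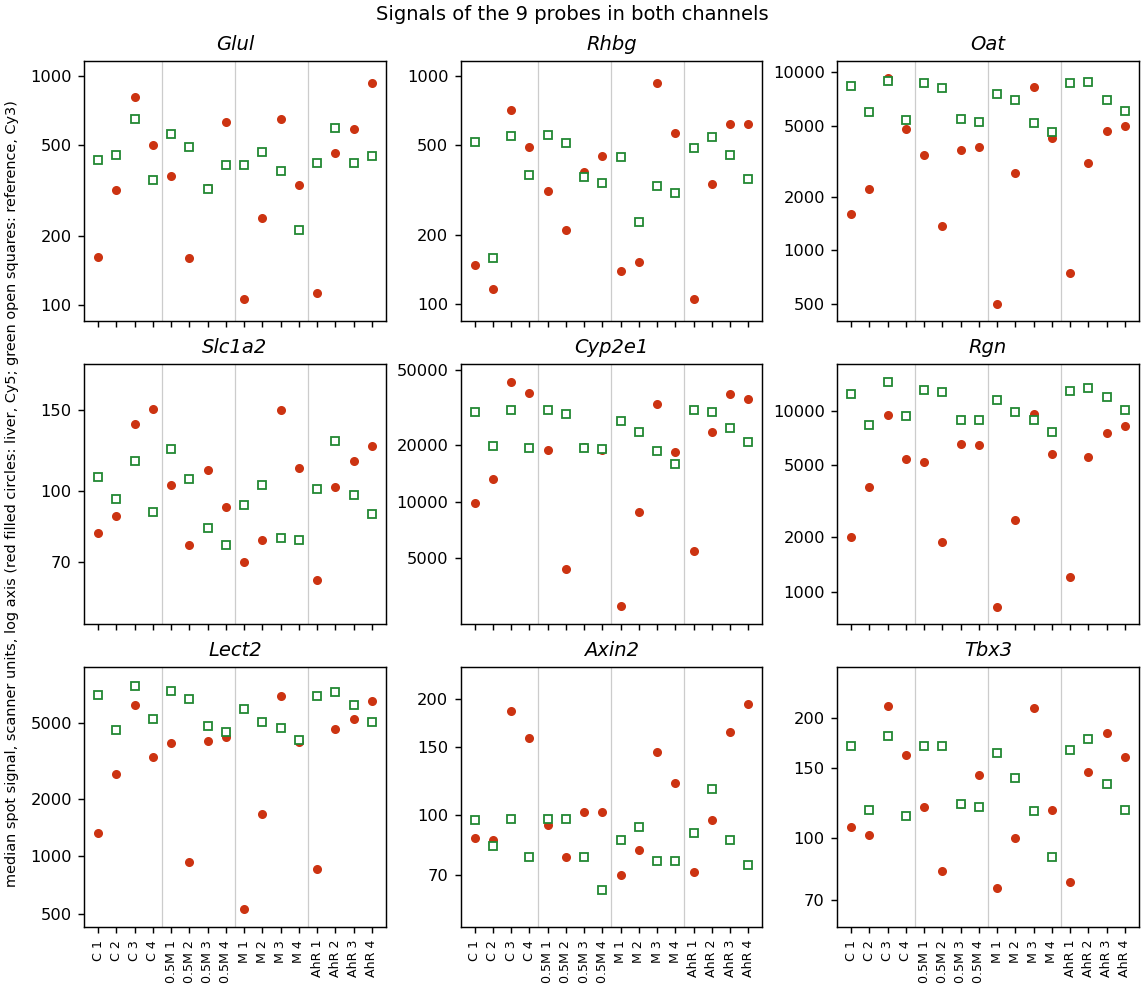
Median spot signal (scanner units, log axis) of the 9 probes on each of the 16 arrays, with liver RNA (Cy5) as filled circles and the reference (Cy3) as open squares. Cy5 varied more between arrays than Cy3 for most genes, and both channels of Rhbg were low on C 2 (116 in Cy5 and 159 in Cy3).

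The sequences before the transcription starts were examined for the letters that TCF/LEF factors and the aryl hydrocarbon receptor bind. The RefSeq tables (build GRCr8) held 10 start sites for 8 of the 9 genes. The TCF/LEF core CTTTGA, on either strand, lay within the 250 bases before the start in 5 of these 10 windows, which belong to Axin2, Cyp2e1, Glul, Slc1a2 and Lect2, while 13.9% of all 33469 windows of this length held it. The core of the xenobiotic response element, TNGCGTG on either strand, was in 0 of the 10 windows and in 4.09% of all. A match is a run of letters and not a shown binding site, and no match says only that the letters are not in this window. Axin2 had 2 matches, from 232 to 227 and from 132 to 127 bases before the start. Cyp2e1 had a match from 153 to 148 bases before the start, and the upstream start site of Glul had a match on the opposite strand, read as TCAAAG, from 229 to 224 bases before the start. The downstream start site of Glul, Oat, Rhbg, Rgn and the upstream start site of Slc1a2 had none. The windows of Axin2, Cyp2e1 and Rhbg are shown because these genes had the largest differences of M or 0.5M from C. Glul is shown as the classic marker of the pericentral zone, by the window of its upstream start site, which held the match. The window of its downstream start site, without a match, is not shown. Capitals mark the TCF/LEF core.
Axin2, chr10:94398535-94398784, plus strand: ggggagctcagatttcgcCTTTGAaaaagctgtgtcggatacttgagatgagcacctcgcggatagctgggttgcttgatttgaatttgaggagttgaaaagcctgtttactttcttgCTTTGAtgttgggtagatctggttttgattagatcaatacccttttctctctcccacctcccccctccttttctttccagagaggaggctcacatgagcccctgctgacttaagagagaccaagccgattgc
Cyp2e1, chr1:205269717-205269966, plus strand: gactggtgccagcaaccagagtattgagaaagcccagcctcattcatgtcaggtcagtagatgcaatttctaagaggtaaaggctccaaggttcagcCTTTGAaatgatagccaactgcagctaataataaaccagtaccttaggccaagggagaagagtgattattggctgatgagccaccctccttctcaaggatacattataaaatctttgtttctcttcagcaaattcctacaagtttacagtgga
Glul, chr13:68519250-68519499, plus strand: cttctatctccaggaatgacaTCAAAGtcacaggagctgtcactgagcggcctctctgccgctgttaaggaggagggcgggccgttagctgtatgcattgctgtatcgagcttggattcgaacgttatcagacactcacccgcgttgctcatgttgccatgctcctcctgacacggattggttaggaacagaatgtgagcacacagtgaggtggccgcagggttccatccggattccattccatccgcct
Rhbg, chr2:176015150-176015399, minus strand: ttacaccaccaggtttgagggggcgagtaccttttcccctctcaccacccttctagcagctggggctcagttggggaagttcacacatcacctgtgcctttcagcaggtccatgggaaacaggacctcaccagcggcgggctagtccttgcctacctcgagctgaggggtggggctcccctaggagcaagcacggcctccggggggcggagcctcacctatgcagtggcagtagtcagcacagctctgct

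No member of the set passed the test in any comparison with C. In M against C, 0 of the 9 genes passed by limma with Benjamini-Hochberg adjustment over all 13146 transcripts (threshold 0.05), where 0.319% of all transcripts passed, and 3 of the 9 had an unadjusted p under 0.05 (Rhbg, Axin2 and Cyp2e1), as did 10.1% of all transcripts. In 0.5M against C, 0 of 9 passed by limma (0.0152% of all transcripts) and 3 had an unadjusted p under 0.05 (Cyp2e1, Axin2 and Tbx3, against 6.53% of all). In AhR against C, 0 of 9 passed by limma (0.00761% of all) and only Oat had an unadjusted p under 0.05 (3.77% of all). For no gene of the 9 did the 4 arrays of an exposed group lie wholly outside the 4 C arrays, which happened for 4.18% of all transcripts in M, 3.04% in 0.5M and 2% in AhR. The median log2 difference of the 9 genes was -0.034 in M (4 higher, 5 lower, beside 50.6% of all transcripts lower), -0.15 in 0.5M (3 higher, 6 lower, beside 51.2%) and -0.10 in AhR (3 higher, 6 lower, beside 49.9%), beside medians of all transcripts of -0.0020, -0.0035 and 0.00022. With 1 array left out at a time the median of the 9 ran from -0.093 (without C 2) to 0.044 in M. It ran from -0.21 to -0.032 in 0.5M and from -0.18 to -0.019 in AhR. The upper end came without C 4 in M, 0.5M and AhR alike. C 4 was the highest C array for Glul, Rhbg, Oat, Slc1a2, Cyp2e1, Axin2 and Tbx3. The differences of these genes from C thus all draw on that array and are not separate observations. Without C 4, Cyp2e1, Axin2 and Tbx3 in 0.5M still had -0.41, -0.38 and -0.24. Glul in M and 0.5M (0.044 and 0.029), Slc1a2 in M (0.036) and Cyp2e1 in AhR (0.069) turned positive without it. Whole liver was measured, so fewer pericentral cells and less RNA per cell cannot be told apart.

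**Figure D2:**
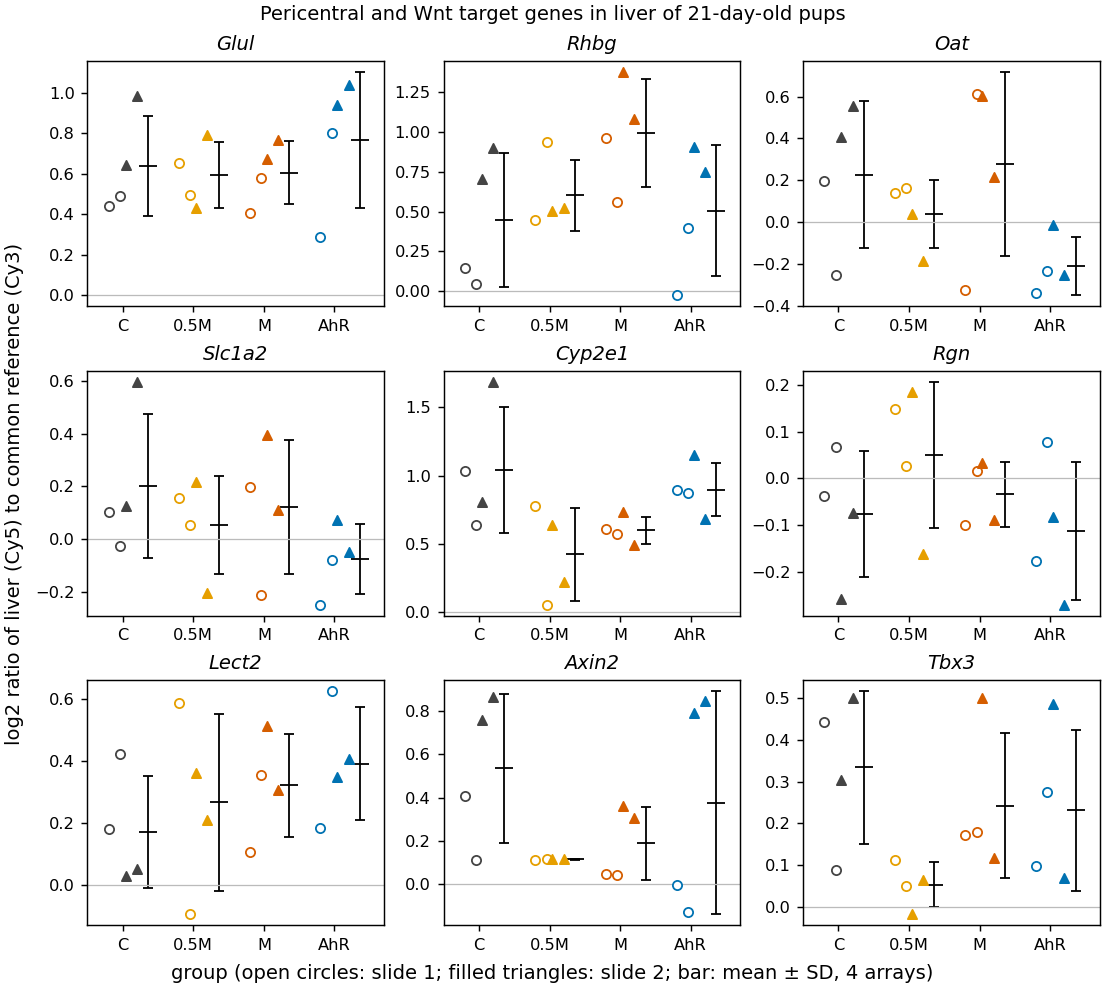
Log2 ratio of liver to reference for the 9 genes on every array, by group, with open circles for slide 1, filled triangles for slide 2 and the bar for mean ± SD of 4 arrays. The groups overlap in nearly every panel; Tbx3 is the exception, where the 4 M arrays lie above the 4 0.5M arrays.

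Glul encodes glutamine synthetase, which fixes ammonia onto glutamate in the last hepatocytes before the central vein. Its log2 ratios were 0.44, 0.49, 0.64 and 0.98 in C, 0.65, 0.49, 0.43 and 0.79 in 0.5M, 0.41, 0.58, 0.67 and 0.76 in M, and 0.29, 0.80, 0.94 and 1.04 in AhR (replicates 1 to 4 in order, here and below). The groups overlapped, and AhR held both the highest and the lowest array. The group means were 0.64 ± 0.25 in C, 0.59 ± 0.16 in 0.5M, 0.61 ± 0.15 in M and 0.77 ± 0.33 in AhR (SD, n = 4 arrays). The difference from C was -0.034 ± 0.12 in M (SE, 95% interval -0.30 to 0.23), -0.048 ± 0.12 in 0.5M (-0.31 to 0.22) and 0.13 ± 0.12 in AhR (-0.14 to 0.39). All 3 intervals include 0.

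Rhbg encodes an ammonium transporter of the Rh glycoprotein family found on pericentral hepatocytes, which take up the ammonia that Glul uses. Its log2 ratios were 0.14, 0.043, 0.71 and 0.90 in C, 0.45, 0.94, 0.51 and 0.52 in 0.5M, 0.96, 0.56, 1.38 and 1.08 in M, and -0.025, 0.40, 0.91 and 0.75 in AhR. M 1, M 3 and M 4 lay above every C array, while M 2 lay among them. The means were 0.45 ± 0.42 in C, 0.60 ± 0.22 in 0.5M, 0.99 ± 0.34 in M and 0.51 ± 0.41 in AhR (SD, n = 4 arrays). The difference of M from C was 0.55 ± 0.17 (SE, 95% interval 0.18 to 0.92, 1.46-fold, adjusted p = 0.247 by limma), the largest of the 9 genes in that comparison, and it did not pass. It was 0.67 on slide 1 and 0.43 on slide 2, 0.62 from the Cy5 channel alone, 0.56 without C 2 and M 2, whose Cy3 signals for Rhbg were the lowest (159 and 228, against 307 to 551 elsewhere), and 0.35 with median centring in place of loess. In 0.5M the difference was 0.16 ± 0.17 (adjusted p = 0.886), with 0.60 on slide 1 and -0.29 on slide 2, and in AhR 0.059 ± 0.17 (adjusted p = 0.9996). From Cy5 alone these were 0.38 and 0.21. Without 0.5M 2 the value in 0.5M was -0.039.

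Oat encodes ornithine aminotransferase, a mitochondrial enzyme that turns ornithine towards glutamate and so feeds glutamine synthesis. Oat had log2 ratios of 0.20, -0.25, 0.41 and 0.56 in C, 0.14, 0.16, 0.039 and -0.19 in 0.5M, -0.32, 0.61, 0.60 and 0.22 in M, and -0.34, -0.23, -0.015 and -0.25 in AhR. All 4 AhR arrays were below 0, as were C 2, 0.5M 4 and M 1, so AhR overlapped every other group. The means were 0.23 ± 0.35 in C, 0.040 ± 0.16 in 0.5M, 0.28 ± 0.44 in M and -0.21 ± 0.14 in AhR (SD, n = 4 arrays). The difference of AhR from C was -0.44 ± 0.18 (SE, 95% interval -0.83 to -0.047, adjusted p = 0.9996 by limma), with -0.26 on slide 1 and -0.61 on slide 2. In M it was 0.049 ± 0.18 and turned to -0.12 without the muscle-rich arrays M 2 and 0.5M 4. In 0.5M it was -0.19 ± 0.18, and it was 0.18 on slide 1 and -0.55 on slide 2. Without M 2 and 0.5M 4 the value in 0.5M was -0.059, and without C 2 and M 2 it was -0.32.

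Slc1a2 encodes a high-affinity glutamate transporter, best known from astrocytes and also present on pericentral hepatocytes, where it brings in the glutamate that Glul consumes. Slc1a2 had log2 ratios of 0.10, -0.025, 0.13 and 0.60 in C, 0.16, 0.053, 0.22 and -0.21 in 0.5M, 0.20, -0.21, 0.40 and 0.11 in M, and -0.25, -0.081, 0.071 and -0.048 in AhR. Of the AhR arrays, 3 lay below the lowest C array and AhR 3 lay among the C arrays. Against C it differed by -0.28 ± 0.13 in AhR (SE, 95% interval -0.56 to 0.0074), -0.15 ± 0.13 in 0.5M and -0.079 ± 0.13 in M. Without C 4, the highest C array, the values in AhR and 0.5M were -0.16 and -0.032, and without 0.5M 4 the value in 0.5M was -0.021. The signal of this probe ran from 64 to 151 scanner units in Cy5, so the offset shrinks its ratios. The scanner software's ratio, which has no offset, gave -0.94 in AhR, -0.50 in 0.5M and -0.43 in M, and these did not pass.

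Cyp2e1 encodes a P450 that oxidises ethanol and paracetamol and is among the most strongly pericentral transcripts of the liver. Its log2 ratios were 1.04, 0.63, 0.81 and 1.69 in C, 0.78, 0.055, 0.64 and 0.22 in 0.5M, 0.61, 0.57, 0.73 and 0.49 in M, and 0.89, 0.87, 1.15 and 0.68 in AhR. The highest array was C 4 and the lowest 0.5M 2, and the M arrays lay close together, all but M 3 below the lowest C array. The means were 1.04 ± 0.46 in C, 0.42 ± 0.34 in 0.5M, 0.60 ± 0.10 in M and 0.90 ± 0.19 in AhR (SD, n = 4 arrays). The difference from C was -0.62 ± 0.19 in 0.5M (SE, 95% interval -1.03 to -0.21, adjusted p = 0.621 by limma) and -0.44 ± 0.19 in M (-0.85 to -0.032, adjusted p = 0.449). The lower dose thus had the lower mean, and M and 0.5M differed from each other by 0.18 ± 0.19 (adjusted p = 0.907). Both differences held their direction on each slide, at -0.42 and -0.82 in 0.5M and -0.25 and -0.64 in M, and shrank to -0.41 and -0.23 without C 4. AhR differed from C by -0.14 ± 0.19 (adjusted p = 0.9996), which became 0.069 without C 4.

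Rgn encodes regucalcin, a gluconolactonase that acts in the synthesis of ascorbate, which rats make in the liver. Rgn had log2 ratios of -0.038, 0.066, -0.26 and -0.073 in C, 0.15, 0.027, 0.19 and -0.16 in 0.5M, -0.099, 0.016, 0.034 and -0.088 in M, and -0.18, 0.078, -0.083 and -0.27 in AhR. All 16 values lay within 0.46 of each other, the narrowest range of the 9 genes, and the groups overlapped. Against C it differed by 0.041 ± 0.093 in M (SE), 0.13 ± 0.093 in 0.5M and -0.037 ± 0.093 in AhR. From Cy5 alone the value in AhR was 0.054, and without M 2, 0.5M 4, M 1, AhR 2 and C 2 that in 0.5M was 0.24.

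Lect2 encodes a protein secreted by hepatocytes that attracts leukocytes and is induced by beta-catenin in liver. Lect2 had log2 ratios of 0.18, 0.42, 0.030 and 0.053 in C, 0.59, -0.094, 0.36 and 0.21 in 0.5M, 0.11, 0.36, 0.51 and 0.31 in M, and 0.18, 0.63, 0.35 and 0.41 in AhR. The 2 lowest C arrays were both on slide 2, and each exposed group reached above the highest C array with a single array. Against C it differed by 0.15 ± 0.14 in M (SE, 95% interval -0.15 to 0.45), 0.094 ± 0.14 in 0.5M and 0.22 ± 0.14 in AhR (-0.080 to 0.52). Only the AhR difference kept its direction on both slides, at 0.10 and 0.34. Without M 2, 0.5M 4, M 1, AhR 2 and C 2 the values in M and 0.5M were 0.30 and 0.22.

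Axin2 encodes a scaffold of the complex that degrades beta-catenin and is itself induced by Wnt signalling, which makes it a common readout of the pathway. Its log2 ratios were 0.41, 0.11, 0.76 and 0.86 in C, 0.11, 0.12, 0.11 and 0.11 in 0.5M, 0.044, 0.042, 0.36 and 0.31 in M, and -0.0060, -0.13, 0.79 and 0.85 in AhR. On slide 2 the C and AhR arrays lay between 0.76 and 0.86 and the 0.5M and M arrays between 0.11 and 0.36. The corresponding Cy5 signals on slide 2 were 186 and 159 in C, 164 and 194 in AhR, 102 and 102 in 0.5M, and 146 and 121 in M. On slide 1 Axin2 was not above background on 5 of the 8 arrays, and there only C 1 stood out, at 0.41.

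The mean of Axin2 was 0.54 ± 0.34 in C, 0.11 ± 0.0017 in 0.5M, 0.19 ± 0.17 in M and 0.38 ± 0.52 in AhR (SD, n = 4 arrays). The difference from C was -0.42 ± 0.14 in 0.5M (SE, 95% interval -0.71 to -0.13, adjusted p = 0.653 by limma), -0.35 ± 0.14 in M (-0.64 to -0.057, adjusted p = 0.389) and -0.16 ± 0.14 in AhR (adjusted p = 0.9996). By slide it was -0.14 and -0.70 in 0.5M, -0.22 and -0.48 in M, and -0.33 and 0.0093 in AhR. Between the slides Axin2 alone of the 9 genes passed the test (0.43 higher on slide 2, adjusted p = 0.0178 by limma, where 8.01% of all transcripts passed). Rhbg was 0.41 higher there (adjusted p = 0.0531) and Glul 0.26 higher (adjusted p = 0.0743), and brightness, batch and pups cannot be told apart between slides. The log ratio written by the scanner software, which has no offset, gave larger differences from C in all 3 groups, -0.81 in 0.5M, -1.17 in M and -0.52 in AhR, and these did not pass either. Without AhR 2 the value in AhR was -0.054.

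Tbx3 encodes a T-box transcription factor that is a target of beta-catenin in liver. Tbx3 had log2 ratios of 0.44, 0.089, 0.30 and 0.50 in C, 0.11, 0.049, -0.018 and 0.065 in 0.5M, 0.17, 0.18, 0.50 and 0.12 in M, and 0.097, 0.28, 0.49 and 0.068 in AhR. All but 1 of the 0.5M arrays lay below the lowest C array, C 2, and all 4 lay below every M array. Against C, Tbx3 differed by -0.28 ± 0.11 in 0.5M (SE, 95% interval -0.52 to -0.046, adjusted p = 0.725 by limma), -0.092 ± 0.11 in M and -0.10 ± 0.11 in AhR. All 3 were negative on both slides, with -0.18 and -0.38 in 0.5M. The scanner software's ratio gave -0.54 in 0.5M.

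**Figure D3:**
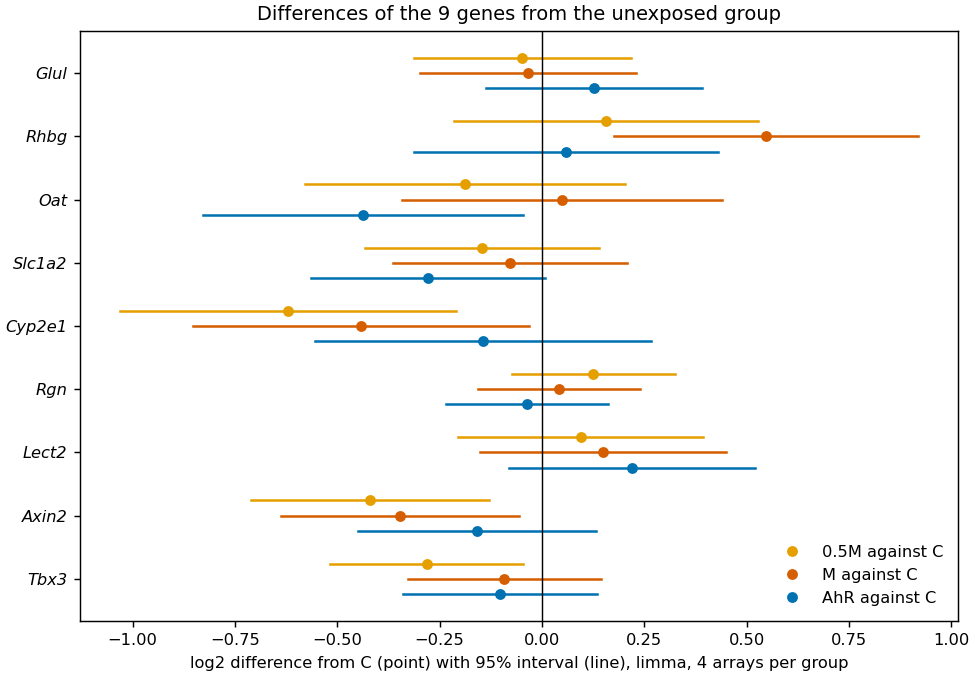
Log2 difference from C of each gene in 0.5M, M and AhR (points) with the 95% interval from limma (lines). The intervals of Cyp2e1 and Axin2 in 0.5M and M, Tbx3 in 0.5M and Oat in AhR lie below 0 and that of Rhbg in M lies above 0, and none of these differences passed after adjustment over all transcripts.

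The moderated F-test of limma over the 4 groups gave the same picture. Of the 9 genes 0 passed it (0.175% of all transcripts), and 3 had an unadjusted p under 0.05 (9.36% of all): Cyp2e1 (adjusted p = 0.453), Rhbg (0.471) and Axin2 (0.471). In order of their means, Cyp2e1 and Axin2 ran C, AhR, M and 0.5M from high to low, and Rhbg ran M, 0.5M, AhR and C. No neighbours in these orders passed the test against each other; the widest step was 0.39 ± 0.17 (SE), between M and 0.5M for Rhbg. For a bend over the dose, 0.5M was set against the midpoint of C and M. Here 0 of 9 passed by limma (0.00761% of all) and 2 had an unadjusted p under 0.05 (5.45% of all), Cyp2e1 with -0.40 ± 0.17 and Tbx3 with -0.24 ± 0.096 (SE).

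Between the exposed groups, Rhbg and Oat had the widest differences of M from AhR and Cyp2e1 the widest of 0.5M from AhR. In M against AhR, 0 of 9 passed by limma (0.266% of all transcripts) and 2 had an unadjusted p under 0.05 (9.87% of all), Oat with 0.49 ± 0.18 (SE, adjusted p = 0.374) and Rhbg with 0.49 ± 0.17 (adjusted p = 0.345). In M against 0.5M, 0 of 9 passed (0.0152% of all) and Rhbg alone had an unadjusted p under 0.05 (6.75% of all), with 0.39 ± 0.17 (adjusted p = 0.727). Tbx3 was the single gene of the 9 whose M and 0.5M arrays did not overlap, as for 2.8% of all transcripts, with a difference of 0.19 ± 0.11 (adjusted p = 0.795). In 0.5M against AhR, 0 of 9 passed (0.0228% of all) and Cyp2e1 alone had an unadjusted p under 0.05 (9.04% of all), with -0.48 ± 0.19 (adjusted p = 0.494). The 4 arrays of these groups overlapped for all 9 genes in both comparisons with AhR, against 4.02% of all transcripts without overlap in M and 5.01% in 0.5M.

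Several of the differences from C were not alike between the slides, each of which held 2 arrays of a group. Whether they depend on the slide was not tested. The difference from C had the same sign on both slides for 5 of the 9 genes in M, 4 in 0.5M and 7 in AhR. In 0.5M the median difference of the 9 genes was 0.065 on slide 1 and -0.36 on slide 2, and Glul, Rhbg, Oat, Slc1a2 and Lect2 had opposite signs on the slides. Cyp2e1, Axin2 and Tbx3 were negative on both slides in 0.5M and in M. Rhbg in M and Rgn in 0.5M were positive on both.

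**Figure D4:**
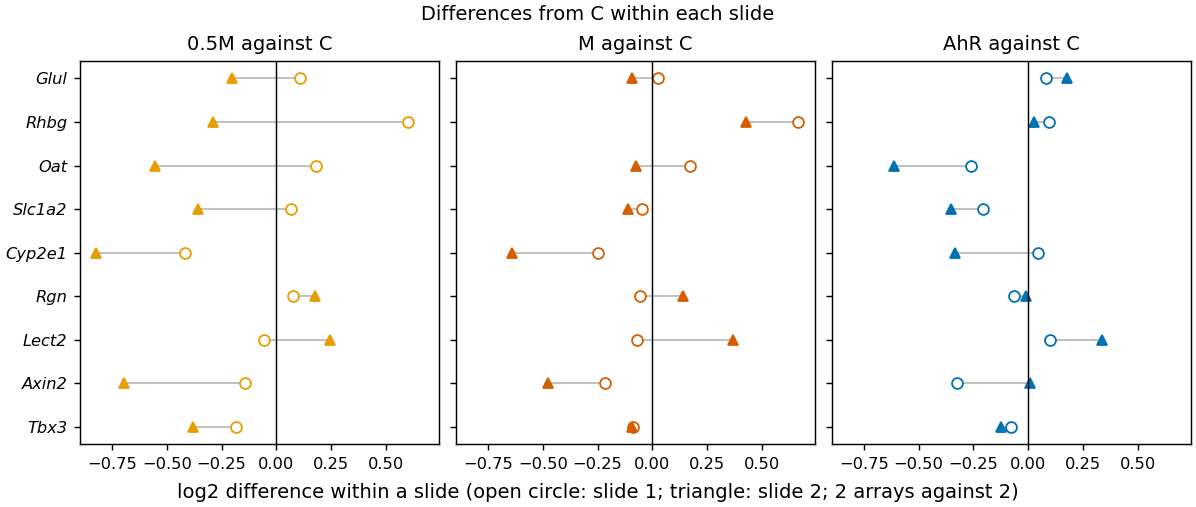
Log2 difference from C of each gene computed within slide 1 (open circles) and within slide 2 (triangles), with 2 arrays against 2. In 0.5M most genes lie further to the left on slide 2 than on slide 1, while Rhbg in M lies to the right of 0 on both.

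Other genes of the same zone were taken from a list of 17, of which 15 were measured. In M, 2 of the 15 rose and 0 fell, where 0.259% of all transcripts rose and 0.0609% fell. Cyp1a2, a P450 of the pericentral zone induced through the aryl hydrocarbon receptor, rose by 1.76 ± 0.17 (SE, adjusted p = 3.6e-05 by limma), with 1.84 on slide 1 and 1.68 on slide 2. Aldh1a1, a retinal dehydrogenase, rose by 1.84 ± 0.28 (adjusted p = 0.00673), with 1.74 and 1.94. Both were also higher in M than in AhR, Cyp1a2 by 1.55 (adjusted p = 0.000153 by limma) and Aldh1a1 by 1.46 (adjusted p = 0.0381). With median centring in place of loess neither passed against C (1.43 and 1.55, adjusted p = 0.997). In fits of slide 1 alone neither passed (adjusted p = 0.150 for Cyp1a2 and 0.0842 for Aldh1a1), nor did Aldh1a1 on slide 2 alone (0.195). Aldh1a1 had 1.82 (adjusted p = 0.0661) without the muscle-rich arrays M 2 and 0.5M 4 and without M 1, AhR 2 and C 2. The median of the 15 was 0.22 in M, 0.0081 in 0.5M and 0.087 in AhR, and 0 of 15 passed by limma in 0.5M or AhR. An unadjusted p under 0.05 was found for 8, 3 and 0 of the 15 in M, 0.5M and AhR, beside 10.1%, 6.53% and 3.77% of all transcripts. From Cy5 alone Cyp1a2 also passed in 0.5M (0.89, adjusted p = 0.0442), against 0.85 ± 0.17 from the ratios (adjusted p = 0.268).

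Genes of the periportal zone, which carries urea and glucose synthesis, showed lower values in M. Of 16 measured, 15 were lower in M than in C, beside 50.6% of all transcripts, with a median of -0.27, and 0 passed by limma (5 with an unadjusted p under 0.05, beside 10.1% of all transcripts). The arrays of M lay wholly below those of C for 4 of the 16, beside 2.07% of all transcripts. Aldh1b1, a mitochondrial aldehyde dehydrogenase, had -0.56 ± 0.14 (SE, adjusted p = 0.141), and Hsd17b13, a lipid droplet protein, -0.39 ± 0.11 (adjusted p = 0.200). In 0.5M and AhR 10 of 16 were lower, with medians of -0.12 and -0.069, and 0 passed by limma (0 with an unadjusted p under 0.05 in either). The median in M was -0.18 on slide 1 and -0.33 on slide 2, and became -0.53 with median centring, a setting that also lowered the median of all transcripts to -0.088.

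The Wnt pathway list held 40 genes, of which 31 were on the array and 21 were measured. None of the 21 passed by limma in M, 0.5M or AhR against C (0, 3 and 3 with an unadjusted p under 0.05), where 0.319%, 0.0152% and 0.00761% of all transcripts passed and 10.1%, 6.53% and 3.77% had an unadjusted p under 0.05. Its medians were -0.059, -0.049 and -0.0026. Lrp6, a coreceptor of Wnt ligands, had 0.045 ± 0.10 in M, -0.23 ± 0.10 in 0.5M and 0.25 ± 0.10 in AhR (SE, adjusted p = 0.918, 0.748 and 0.9996). Ccnd1, cyclin D1, a target of the pathway, had -0.11 ± 0.13, -0.083 ± 0.13 and 0.39 ± 0.13 (adjusted p = 0.837, 0.922 and 0.9996 by limma). Its 4 AhR arrays lay above all C arrays. AhR and C did not overlap for 1 of the 21 genes and for 2% of all transcripts. In 0.5M, 2 of the 21, Lrp6 among them, lay wholly below C, beside 3.04% of all transcripts without overlap in either direction. In M this held for 0 of the 21, beside 4.18% of all transcripts.

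Glutamine, glutamate, ornithine and ammonia handling was covered by 25 further genes, of which 21 were measured. None of them passed by limma in M, 0.5M or AhR against C (4, 0 and 2 with an unadjusted p under 0.05, beside 10.1%, 6.53% and 3.77% of all transcripts), and the medians were -0.11, -0.022 and -0.024. Glud1, glutamate dehydrogenase, which releases or fixes ammonia, had -0.42 ± 0.10 in M (SE, adjusted p = 0.107 by limma) and -0.11 and -0.040 in 0.5M and AhR. All 4 of its M arrays lay below all C arrays, as for 2 of the 21 genes and 2.07% of all transcripts. Slc1a5, a glutamine carrier, had 0.063 ± 0.066, -0.022 ± 0.066 and 0.21 ± 0.066 (adjusted p = 0.798, 0.965 and 0.9996).

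Of the genes of ascorbate synthesis beside Rgn, 5 of 6 were measured and 0 passed by limma in M, 0.5M or AhR against C (2, 1 and 1 with an unadjusted p under 0.05, beside 10.1%, 6.53% and 3.77% of all transcripts). The medians of the 5 were 0.0053, 0.095 and 0.025, with 3 higher and 2 lower in M. Ugdh, which makes UDP-glucuronate, had 0.39 ± 0.086 in M (SE, adjusted p = 0.0710 by limma), 0.26 ± 0.086 in 0.5M (0.657) and 0.27 ± 0.086 in AhR (0.9996). All 4 of its arrays in each exposed group lay above all C arrays. Groups did not overlap, in either direction, for 4.18%, 3.04% and 2% of all transcripts in M, 0.5M and AhR. Ugdh passed by limma in M without M 2 (0.47, adjusted p = 0.0203), the array with the most muscle transcripts in that group. It also passed without C 2 and M 2 (adjusted p = 0.0440) and with array weights (0.0382). Ugp2, which makes UDP-glucose, had 0.48 ± 0.12 in M (adjusted p = 0.117). It passed by limma without 0.5M 1 (adjusted p = 0.0364), an array of neither group compared, so its difference stayed at 0.48 and only the shared spread changed. With 1 array left out at a time, the adjusted p by limma in M ran from 0.0203 to 0.227 for Ugdh. For Ugp2 it ran from 0.0364 to 0.368.

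**Figure D5:**
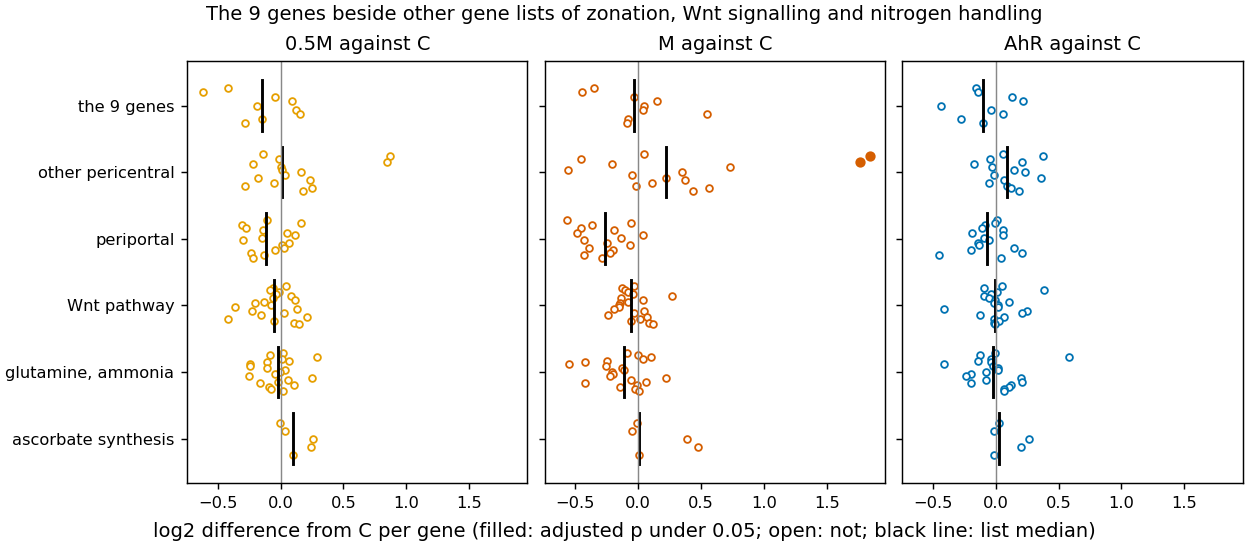
Log2 difference from C of each measured gene in the set of 9 and in 5 further lists, for 0.5M, M and AhR, with filled points for an adjusted p under 0.05 and a black line for the list median. Only Cyp1a2 and Aldh1a1 in M are filled, and the periportal genes in M lie mostly to the left of 0.

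The 9 genes followed each other only loosely across the 16 arrays. After removing the slide mean, 25 of their 36 pairs had a correlation above 0, with a median of 0.23 and a range of -0.42 (Axin2 and Rgn) to 0.70 (Cyp2e1 and Tbx3). Cyp2e1 with Axin2 (0.58) and Axin2 with Tbx3 (0.52) came next. Against the mean of the other 8, Tbx3 had 0.67, Slc1a2 0.60 and Cyp2e1 0.50, while Rgn had 0.16 and Lect2 0.049. The points share arrays, the reference channel and the loess fit of each array, and these correlations are descriptions. Among 8553 other transcripts with a symbol, those most correlated with the mean profile of the 9 over the 16 arrays were Pip4k2a (0.81), Asb6 (0.79), Rhd (0.79), Alox15 (0.78) and Macf1 (0.76). They were picked as the highest of 8553 values, were not tested and do not show shared control. Erythroid markers (6 measured) were highest on AhR 3, M 3 and C 4, with mean log2 ratios of 1.15, 1.03 and 0.83. The mean profile of the 9 had 0.43, 0.69 and 0.99 there, and was lowest on 0.5M 4 (-1.01, erythroid markers 0.39). On slide 1, 0.5M 2 and C 2 had erythroid values of 0.77 and 0.74 with profiles of -0.20 and -0.18. The part of erythroid cells in the profile was not tested.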

How the data were processed

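Scans of 16 2-colour arrays (4 per group) were used. Per the file headers, Agilent Feature Extraction 10.7.3.1 wrote each spot's intensity in both channels on a linear scale, quality marks as other values, and a log10 ratio of Cy5 to Cy3. The authors also deposited a value table of log2 ratios, used as an alternative; its columns matched their own arrays over 30367 probes (r 0.977 to 0.998, with column medians of -0.0093 to 0.012), and the authors' processing of that table is not given in the sources used here.

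Median signals were background-corrected (normexp, offset 50) and loess-normalised within arrays in limma 3.58.1 (R 4.3.3), with control spots at weight 0 and outlier spots left out. Replicate spots were averaged per probe. The filter asked for 4 or more of the 16 arrays with at least 50% of a probe's Cy5 spots well above background, and the brightest probe stood for a transcript, which left 13146. Gene names came from the scan files and from RefSeq tables (GRCr8). The model had the 4 groups and the slide; the 6 pairwise comparisons, the F-test and the contrast of 0.5M with the midpoint of C and M were adjusted by Benjamini-Hochberg over all transcripts, at a threshold of 0.05. The procedure was tested on simulated data. The number of arrays limits the precision.

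Members and lists were chosen with earlier results of these data known. From each list, the genes past the threshold in any pairwise comparison were named, or else the 2 with the smallest F-test p. The alternatives were the background correction, the normalisation, the filter, array weights, each slide alone, the replicate number as a block and arrays left out; the Cy5 channel alone and the fit without C 2 and M 2 were added after seeing the data. Replicate numbers were not taken as pairs. The highest Cy5 correlation between 2 arrays was 0.995. Cy3, a common reference, correlated at 0.985 to 0.998 between arrays, so this value cannot tell whether 2 arrays carried the same liver RNA. Other ages and groups were not analysed here.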

Additional observations from a re-analysis of the deposited data

Results flagged for a closer look

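Each of the 9 genes in each of the 4 groups was examined for an array far from the other 3, and 2 of these 36 sets of 4 arrays held such an array, where chance gives about 1 in 20. Rhbg had a log2 ratio of 0.94 on array 0.5M 2, against 0.45 to 0.52 on the other 0.5M arrays. That array was also the lowest of the 16 for Cyp2e1 (0.055). Tbx3 had 0.50 on array M 3, against 0.12 to 0.18 on the other M arrays.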

How the results depend on the processing

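None of the 271 recounts under alternative settings brought any of the 9 genes past the threshold by limma. Quantile normalisation of brightness between arrays left the ratios unchanged, so its recounts could not differ from the main fit. The number of all transcripts that passed in M against C ran from 1 (median centring) to 66 (array weights), with 4 on slide 1 alone and 7 on slide 2 alone. From the group means, the correlation of same-numbered arrays ran from -0.23 to 0.46 over 24 pairs, with 16 above 0.1. Same-numbered arrays also share a slide, and within slides the range was -0.40 to 0.22, with 10 above 0.1. Of the 16 arrays, 9 correlated best with their own number. These values do not settle whether the numbers mark pairs. With the replicate block in place of the slide, 0 of the 9 passed in any comparison, and 41, 3 and 1 of all transcripts passed in M, 0.5M and AhR against C, 7 in M against 0.5M, 30 in M against AhR, 5 in 0.5M against AhR, 22 in the F-test and 1 against the midpoint. Axin2, Cyp2e1, Rhbg and Tbx3 in M, Axin2, Cyp2e1, Rgn and Tbx3 in 0.5M, and Glul, Lect2, Oat, Slc1a2 and Tbx3 in AhR kept the sign of their difference from C under every setting that gave a value; Axin2 gave none under the stricter filter of 12 arrays. Several of these settings left a difference from C unchanged and so could not turn its sign. Among them were leaving out an array of a group not compared, quantile normalisation of brightness between arrays, dropping the slide from the model and the replicate block. A change of the filter and a fit of the compared groups alone did the same. Signals of Axin2, Slc1a2 and Tbx3 near background limit what can be read from them.

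The median of the 9 genes in 0.5M was 0.065 on slide 1 alone and -0.36 on slide 2 alone. The periportal median in M was -0.53 with median centring and -0.18 on slide 1 alone, and ran from -0.38 to -0.23 with 1 array left out. Signs of differences from C turned as follows, and the cause was not tested. On slide 1 alone, M gave Glul 0.027, Lect2 -0.071, Rgn -0.056, Lrp6 -0.052 and Ccnd1 0.023, 0.5M gave Slc1a2 0.065, Oat 0.18, Lect2 -0.056 and Glul 0.11, and AhR gave Cyp2e1 0.046 and Aldh1a1 -0.11. On slide 2 alone, M gave Oat -0.073, 0.5M gave Rhbg -0.29, Ccnd1 0.090 and Hsd17b13 -0.084, and AhR gave Axin2 0.0093, Glud1 0.026 and Aldh1b1 -0.32. With median centring, M gave Rgn -0.26, Oat -0.23, Lect2 -0.13 and Lrp6 -0.11, 0.5M gave Rhbg -0.0057, Slc1a5 0.011 and Hsd17b13 -0.032, and AhR gave Rhbg -0.029 and Aldh1b1 -0.070. From Cy5 alone, Rgn in AhR was 0.054 and Slc1a5 in M -0.033; with the scanner's ratio, Glul in M was 0.046 and Slc1a5 in M -0.014. With array weights, Glud1 in AhR was 0.016 and Aldh1b1 -0.10, and in the authors' table Aldh1b1 in AhR was -0.0035. Without C 2 and M 2, Oat in M was -0.22, Rhbg in AhR -0.022 and Aldh1b1 -0.030. Without M 2 and 0.5M 4, Slc1a2 in M was 0.0031 and Oat -0.12. Without M 1, AhR 2 and C 2 as well, Oat in M was -0.020, Rhbg in AhR -0.039 and Aldh1b1 -0.084.

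With 1 array left out at a time, the sign also turned within these ranges. In M these were Glul -0.080 to 0.044, Oat -0.10 to 0.23, Rgn -0.0083 to 0.082, Slc1a2 -0.15 to 0.036 and Lrp6 -0.027 to 0.14. In 0.5M they were Glul -0.12 to 0.060, Lect2 -0.020 to 0.23, Rhbg -0.039 to 0.27 and Hsd17b13 -0.051 to 0.11. In AhR they were Cyp2e1 -0.27 to 0.069, Rgn -0.090 to 0.0032, Rhbg -0.014 to 0.18, Aldh1b1 -0.10 to 0.14 and Glud1 -0.12 to 0.021.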
